A study of Mus musculus with 2 samples.

Results

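Hemgn-high spermatids are testicular cells that carry many transcripts of Hemgn before protamine transcripts fill the cell. They were defined as barcodes with at least 8 Hemgn unique molecular identifiers (UMIs), with Prm1, Prm2, Tnp1 and Tnp2 together under 10% of all UMIs, and with fewer than 100 UMIs of the globin genes Hba-a1, Hba-a2, Hbb-bs and Hbb-bt. Members were therefore chosen by their measured Hemgn, protamine and globin counts, which are described and not tested. The rule found 206 of 28245 barcodes, or 0.729% (exact binomial interval 0.633 to 0.836%). The data are droplet-based 3′ single-cell RNA counts of total testicular cells from adult miR-202-/- mice and from adult WT mice of the strain C57BL/CJ;ICR, with 1 library of each genotype. Testes were digested with collagenase, trypsin and DNase, and debris was removed by flow cytometry. Both libraries stand in 1 table, in which every barcode ends in mark 1 or mark 2, and neither labels nor headers say which genotype a mark stands for. No value below is therefore assigned to miR-202-/- or WT cells, the marks are not replicates, and nothing was tested. All intervals cover counting error only, at the 95% level.

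Spermatids are the haploid cells that follow meiosis. Round spermatids build the acrosome, the secretory cap of the sperm head, and start the axoneme of the tail. In elongating spermatids the nucleus is shaped by the manchette, a skirt of microtubules, while transition proteins and then protamines take the place of histones and transcription stops. Many messenger RNAs are made in the late round stage and stored for translation after that stop. Hemgn encodes haemogen, a nuclear protein of blood-forming cells, and mouse testis makes a form of its transcript from another promoter in spermatids. Fam71b, also called Garin3, belongs to a family of testis proteins that bind the small GTPase RAB2 at the Golgi apparatus and the acrosome.

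The Hemgn gene lies on chromosome 4 from 46393989 to 46413506, on the reverse strand of GRCm38. GENCODE M21 gives it a pair of transcripts, which begin at 46413506 and 46404236 and share their end at 46393989, so 3′ counts cannot tell the blood and testis starts apart. Fam71b lies on chromosome 11 from 46396559 to 46407982, on the forward strand. The RefSeq promoter windows of GRCm38.p6, from 250 bases before to 50 after a start site, are shown for the gene that defines these cells, for its companion marker Fam71b and for Ccin, which was picked after its values were seen because its window held a full cyclic AMP response element. They are Hemgn chr4:46404134-46404433 on the reverse strand, Fam71b chr11:46404478-46404777 on the forward strand and Ccin chr4:43983254-43983553 on the forward strand. Capitals mark GATAA, the core of GATA factor sites, in the first and second, and TGACGTCA, the cyclic AMP response element, in the last.
Hemgn: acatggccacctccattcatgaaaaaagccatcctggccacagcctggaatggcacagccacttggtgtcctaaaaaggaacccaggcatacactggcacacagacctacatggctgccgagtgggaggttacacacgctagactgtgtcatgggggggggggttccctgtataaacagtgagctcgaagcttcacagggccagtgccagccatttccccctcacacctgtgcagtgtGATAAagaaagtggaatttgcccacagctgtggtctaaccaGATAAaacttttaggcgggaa
Fam71b: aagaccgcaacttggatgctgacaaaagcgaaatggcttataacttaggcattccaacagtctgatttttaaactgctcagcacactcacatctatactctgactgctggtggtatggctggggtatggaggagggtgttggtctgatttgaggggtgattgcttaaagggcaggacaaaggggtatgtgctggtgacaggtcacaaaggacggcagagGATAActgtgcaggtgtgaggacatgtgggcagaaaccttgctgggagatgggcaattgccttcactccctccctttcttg
Ccin: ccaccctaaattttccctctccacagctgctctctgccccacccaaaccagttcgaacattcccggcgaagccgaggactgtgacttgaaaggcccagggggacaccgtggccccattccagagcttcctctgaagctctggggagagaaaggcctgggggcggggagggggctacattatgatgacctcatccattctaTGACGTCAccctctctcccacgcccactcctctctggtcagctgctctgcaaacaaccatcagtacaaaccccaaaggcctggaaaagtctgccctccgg
The Hemgn window spans the start at 46404236 and not the one at 46413506. The Fam71b window spans the start at 46404730 and not the one at 46396559. Which starts are used in these cells was not tested. The Hemgn window held 2 copies of GATAA and 1 TATAAA, and the Fam71b window held 1 GATAA. On both strands, GATAA occurred in 25.4% of all 32851 RefSeq promoter windows, TATAAA in 13.6% and TGACGTCA in 1.79%, so single matches of the shorter motifs are common.

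Hemgn set these cells apart by rule, and its values are a description of the gate. Members held a median of 13 Hemgn UMIs (range 8 to 47), and the median was 13 under each mark. They carried 3173 of all 25912 Hemgn UMIs (12.2%). In total 452 barcodes had at least 8 Hemgn UMIs, and 246 of them were left out because their protamine share was 10% or more. The globin limit removed 0 barcodes, and the erythroid marker genes summed to 3.59 CPM in members, where CPM is UMIs per 1000000. A Hemgn UMI alone says little: 41.5% of all barcodes and 35.2% of 219 barcodes rich in Sertoli cell markers had at least 1, at median depths of 5739 and 6450 UMIs, but none of those 219 had more than 4.

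**Figure D1:**
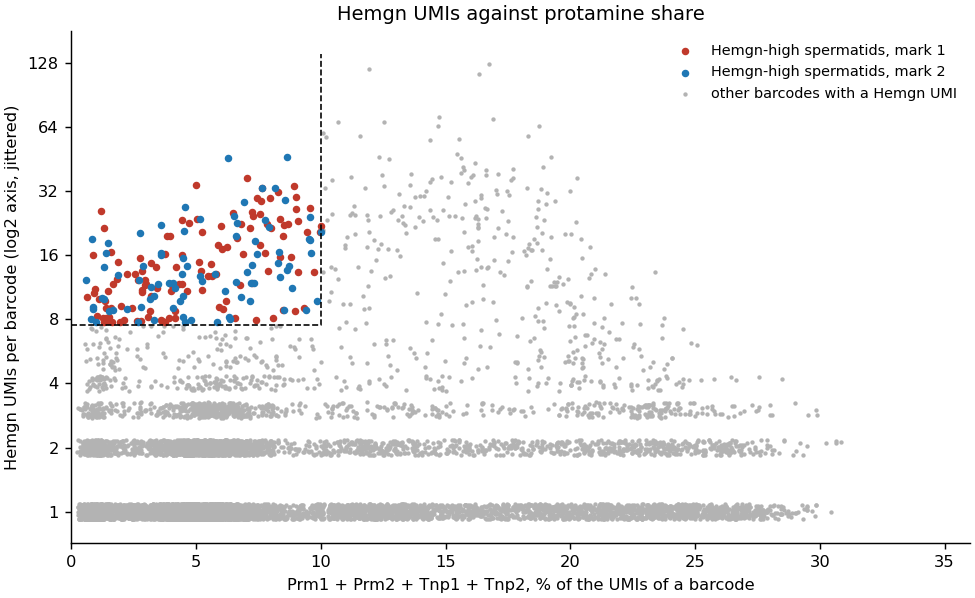
Hemgn UMIs per barcode (log2 axis, jittered) against the share of the UMIs from Prm1, Prm2, Tnp1 and Tnp2, for barcodes with at least 1 Hemgn UMI; coloured points are the 206 members under each mark and dashed lines are the limits of the rule. The members fill the left part of a cloud of 452 barcodes, and the highest Hemgn counts, up to 131 UMIs, lie to the right of the 10% line.

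The 50 members with 8 to 9 Hemgn UMIs had a median protamine share of 3.10%, and the 63 barcodes with 6 to 7, which the rule leaves out, had 4.46%. The 38 members with a protamine share of 8 to 10% had a median of 19 Hemgn UMIs, and the 40 barcodes at 10 to 12% had 19.5. At the protamine limit the pooled Hemgn medians lay close together, though 33 of the 40 barcodes outside it were under mark 1. At the Hemgn limit the median protamine share was higher outside the rule than inside.

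Members had a median of 34676.5 UMIs (range 4754 to 157053) and 5526 detected genes. Mark 1 held 122 members of 12935 barcodes (0.943%, interval 0.784 to 1.13%) and mark 2 held 84 of 15310 (0.549%, 0.438 to 0.679%), and genotype and library cannot be told apart in this difference. Their median protamine share was 4.75%. Mitochondrial transcripts made up a median of 0.032% of their UMIs, against 0.543% in the early round, 0.078% in the later round and 0.043% in the elongating spermatids set beside them below. Of the barcode sequences, 73 occurred under both marks, and 0 members were among them.

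The members were set beside 3 gates of spermatids from the same table. Round gates held barcodes of at least 10000 UMIs under the same protamine and globin limits. Early round spermatids had at least 8 Acrv1 UMIs and at most 1 of Spam1 and of Hemgn (189 barcodes, median 23027 UMIs). Later round spermatids had at least 8 Spam1 UMIs and at most 1 of Hemgn (436 barcodes, median 38477.5 UMIs). Elongating spermatids had a protamine share of 10% or more and at least 15000 UMIs, with the same globin limit (2218 barcodes, median 20265.5 UMIs), and 228 of them also had at least 8 Hemgn UMIs. After thinning each barcode to 3500 UMIs, members had a median of 1791.5 detected genes, early round spermatids 1900, later round spermatids 1894 and elongating spermatids 1247. The genes of the X chromosome gave 1.73% of the UMIs of members, against 0.858% in early round, 1.15% in later round and 1.54% in elongating spermatids.

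Marker genes were set beside the spermatid label. All 18 round spermatid markers in the table and all 17 elongating spermatid markers were detected. The same held in each of the other gates, and all 13 spermatocyte markers were also detected in members, so detection alone does not bear on the label. The round markers summed to 7873 CPM in members, against 5054 CPM in early round, 7459 CPM in later round and 3018 CPM in elongating spermatids. The elongating markers summed to 64570 CPM in members, against 20875, 18766 and 256835 CPM. These sums keep genes of the gates. The elongating list holds Prm1, Prm2, Tnp1 and Tnp2, as well as Fam71b, and the round list holds Acrv1 and Spam1. The order of the gates in both sums is therefore set in part by the rules and is no independent check. The round list also holds Tex29 and Cd46, which peaked in members, at 549 and 64.8 CPM there and 181 and 1.71 CPM in later round spermatids. Other round markers, such as Spam1 and Dpy19l2, were lower in members than in later round spermatids. The higher round sum of members thus does not hold for each marker. Spermatocyte markers summed to 2447 CPM in members, against 3932, 3557 and 1450 CPM. Sertoli markers summed to 44.7 CPM in members, against 17.1, 16.3 and 56.0 CPM, with 0 of 11 genes at 0 and 1 member at 122 UMIs. T or NK cell markers summed to 29.4 CPM in members, with 4 of 7 genes at 0 (Cd3e, Cd3g, Nkg7 and Gzma). Macrophage markers summed to 22.0 CPM with 2 of 8 at 0 (C1qc and Csf1r), and Leydig markers to 3.59 CPM with 1 of 7 at 0 (Hsd3b1). In 12 members the summed UMIs of the somatic, spermatogonium or spermatocyte markers passed the 99th percentile of the 4 gates, and without them 373 genes, in place of 317, were higher than in all 3 other gates. In 8 members (2 under mark 1 and 6 under mark 2, median 86888 UMIs) Sycp1, Sycp2, Sycp3 and Piwil1 together reached 6 UMIs per 10000, the limit used here for barcodes rich in spermatocyte transcripts.

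Fam71b was high in the same cells. Its level in members was 316 CPM under mark 1 and 309 CPM under mark 2, against 26.9 and 19.4 CPM in early round, 13.4 and 11.8 CPM in later round and 191 and 96.9 CPM in elongating spermatids. Members stood above each of the other gates under both marks, and the pooled ratios were 14.3-fold over early round (interval 11.8 to 17.6), 24.9-fold over later round (21.9 to 28.4) and 2.13-fold over elongating spermatids (2.04 to 2.22). The call over elongating spermatids was lost under both other scalings described below. At least 1 Fam71b UMI was found in 99.5% of members. Hemgn itself stood at 366 and 342 CPM in members, against 15.01 and 12.6 CPM in early round, 8.25 and 6.05 CPM in later round and 199 and 89.3 CPM in elongating spermatids. The round gates allowed at most 1 Hemgn UMI, so the Hemgn values against them follow from the rules. The Fam71b ratios over the round gates were likewise taken against barcodes chosen for low Hemgn. Both genes were about a factor of 2 higher under mark 1 than under mark 2 in elongating spermatids. A gate on at least 8 Fam71b UMIs with the same limits, added after the data were seen, took 186 barcodes, of which 156 were members (83.9% of that gate and 75.7% of the members).

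Genes were called higher or lower in members when the CPM of the summed UMIs differed at least 1.5-fold in each mark and in 1 direction, and when the higher group reached 50 CPM and 50 UMIs. Against early round spermatids 1133 of 12729 measured genes were higher (8.9%) and 1494 lower (11.7%). Against later round spermatids 810 of 14342 were higher (5.65%) and 1071 lower (7.47%). Against elongating spermatids 1824 of 15462 were higher (11.8%) and 355 lower (2.3%). The genes that define a gate were left out of these counts. The scaling matters here, and the protamine share of the UMIs differed widely between the gates. Over genes that reached 50 UMIs in each group compared, the median log2 ratio was -0.54 against early round, -0.34 against later round and 0.93 against elongating spermatids. Under TMM factors, which shift these ratios by 0.47, 0.27 and -0.80, the counts became 1407 higher and 590 lower, 1031 and 510, and 948 and 1136. Under median-of-ratios factors they were 1380 and 604, 1032 and 470, and 823 and 1291. Calls that held under all 3 scalings numbered 1123 higher and 581 lower against early round, 801 and 462 against later round, and 823 and 355 against elongating spermatids.

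In members, 317 of 12683 genes (2.5%) were higher than in each of the 3 other gates, and 173 of them (54.6%) were so under all 3 scalings. By totals, only 1 gene (0.00788%) was lower than in each of the 3, and this count was not repeated under the other scalings. Of 13912 genes measured against both neighbours, 207 were higher than in later round and lower than in elongating spermatids, and 492 were lower than in later round and higher than in elongating spermatids. Another 323 were higher than in both neighbours and 1 was lower than in both, all by totals. These pattern counts were not repeated under the other scalings. Genes lower than in elongating spermatids numbered 355 by totals, 1136 under TMM factors and 1291 under median-of-ratios factors.

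**Figure D2:**
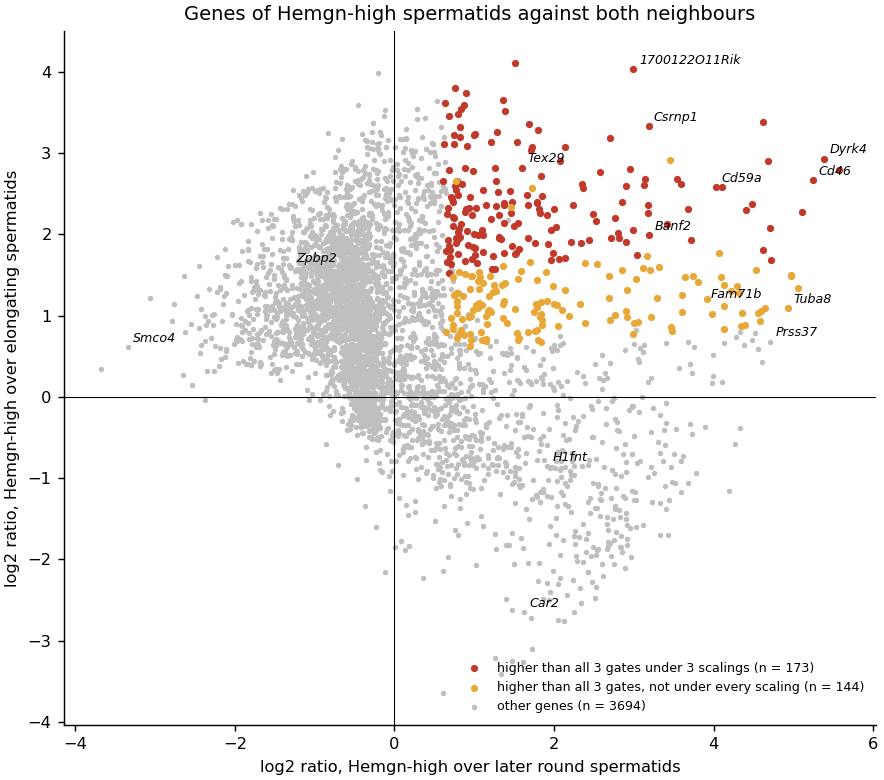
Log2 ratio of CPM in Hemgn-high over later round spermatids (horizontal) and over elongating spermatids (vertical), 1 point per gene with at least 50 UMIs in members, 20 in each neighbour and 50 CPM in 1 of the 3, leaving out the genes of the gates. Red points are the 173 genes higher than all 3 gates under 3 scalings, orange points the 144 that were not so under every scaling, and grey points the other 3694 genes; genes at the upper right are highest in members, and genes at the lower right, such as H1fnt and Car2, are higher than in later round and lower than in elongating spermatids.

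The genes that peaked most sharply were low in all 3 other gates. The noncoding transcript 1700017M07Rik stood at 108 and 90.6 CPM in members under marks 1 and 2, against 8.76 and 4.92 CPM in early round, 4.33 and 3.91 CPM in later round and 12.8 and 6.11 CPM in elongating spermatids. Its pooled level in members was 10.4-fold that in elongating spermatids, the highest of the other gates, with 8.47-fold under mark 1 and 14.8-fold under mark 2. Csrnp1, a nuclear protein that activates transcription, stood at 167 and 160 CPM in members, against 15.6 and 15.97, 20.1 and 16.2, and 18.9 and 13.3 CPM. It was low and nearly flat before and after, and 97.6% of members had a Csrnp1 UMI.

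Dyrk4, a kinase of the DYRK family, stood at 83.4 and 89.6 CPM in members, against 6.26 and 4.30 CPM in early round, 1.55 and 2.51 CPM in later round and 14.7 and 7.39 CPM in elongating spermatids. Osbpl7, an oxysterol-binding protein relative, averaged 60.3 CPM in members, against 3.30, 1.27 and 8.72 CPM. Slc36a3, of a family of amino acid transporters, was the gene of largest ratio over early round spermatids (28.4-fold, interval 17.6 to 48.9), at 99.4 CPM in members against 3.502 CPM. Banf2, a testis relative of the barrier-to-autointegration factor that bridges DNA, was far more abundant, at 675 CPM in members, against 45.5, 74.1 and 170 CPM. Pex5l, a relative of the peroxisome import receptor, stood at 424 CPM, against 22.9, 39.7 and 96.8 CPM. All 5 peaked in members under all 3 scalings.

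**Figure D3:**
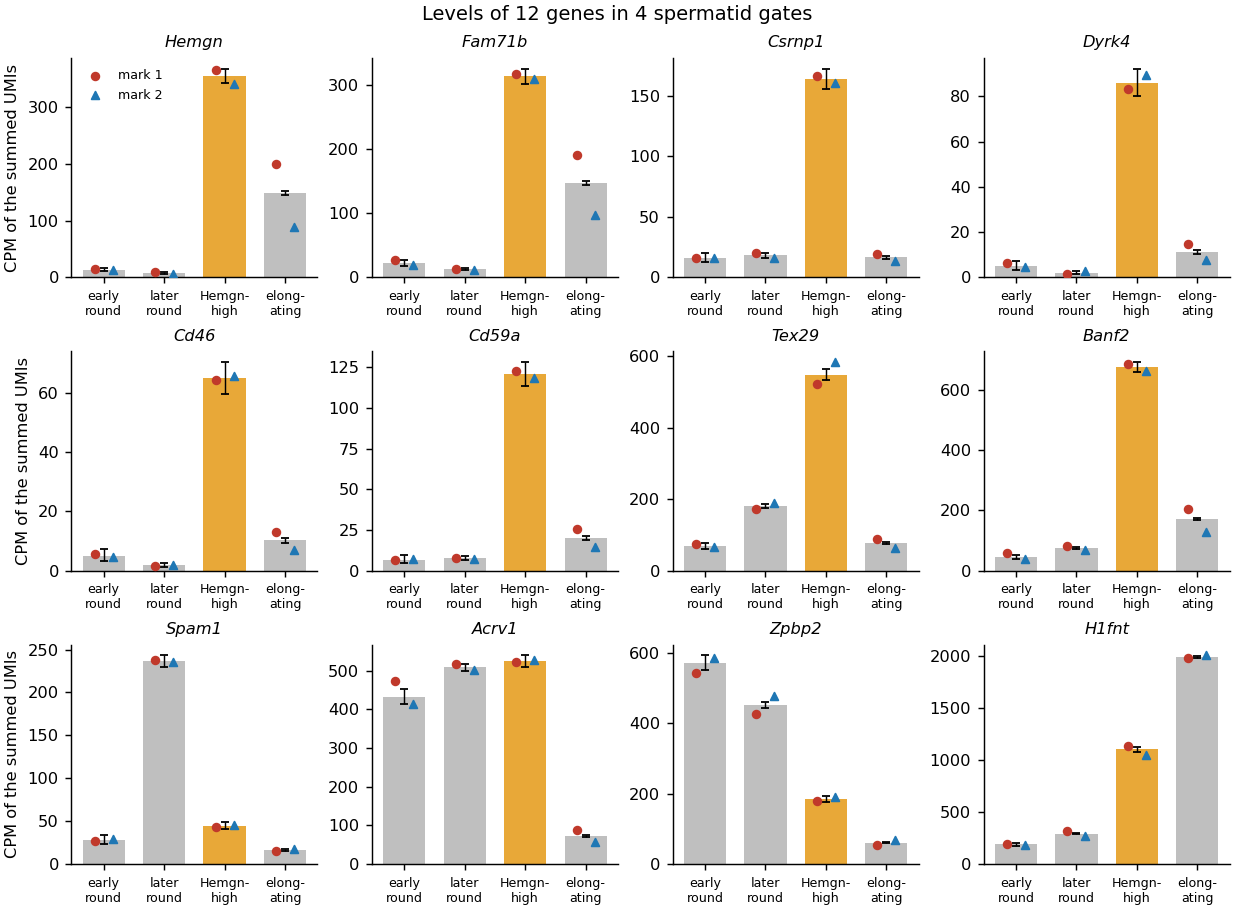
CPM of the summed UMIs in early round, later round, Hemgn-high and elongating spermatids for 12 genes. Bars are both marks pooled with exact Poisson intervals, circles mark 1 and triangles mark 2; Csrnp1, Dyrk4, Cd46, Cd59a, Tex29 and Banf2 are highest in Hemgn-high spermatids under both marks, Spam1 in later round spermatids and H1fnt in elongating spermatids.

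Cd46, Cd55, Cd59a and Cd59b, which regulate complement, were among the 2.5% of genes that peaked. They were picked after their values were seen, and other complement genes were not counted. Cd46, a cofactor for complement breakdown that sits on the acrosomal membrane in mouse sperm, stood at 64.3 and 65.5 CPM in members, against 5.63 and 4.61 CPM in early round, 1.44 and 1.96 CPM in later round and 13.0 and 6.94 CPM in elongating spermatids. Its ratio over later round spermatids was 37.8-fold (interval 26.9 to 54.9). Cd59a and Cd59b, membrane inhibitors of the terminal complement complex, averaged 121 and 78.2 CPM in members, against 6.799 and 4.12 CPM in early round, 7.44 and 2.99 CPM in later round and 20.2 and 18.4 CPM in elongating spermatids. Cd55, which speeds decay of the complement convertases, averaged 108 CPM in members, against 20.4, 11.99 and 32.5 CPM. The call for Cd55 over elongating spermatids was lost under both other scalings, and those of Cd46, Cd59a and Cd59b were not. Also picked after the fact, Parn, a nuclease that trims poly(A) tails, peaked at 103 CPM in members, against 7.21, 5.97 and 17.2 CPM, and Rad21, a cohesin subunit, at 82.2 CPM, against 12.2, 13.8 and 12.1 CPM.

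Of the 317 genes, 63 (19.9%) were annotated as long noncoding RNAs and 15 (4.73%) lay on the X chromosome. Among the 4283 measured genes with at least 50 CPM in some gate these shares were 10.2% and 2.05%. A RefSeq promoter window was found for 262 of the 317 genes, as 324 windows. GATAA occurred in 27.2% of those windows, against 18.4% of the 4316 windows of the 4283 genes and 25.4% of all RefSeq windows. TATAAA was likewise more frequent than in the 4283 genes, at 12.7%, against 8.29% and 13.6%. TGACGTCA occurred in 3.09%, against 3.71% and 1.79%, and its part TGACG in 29.6%, against 32.4% and 20.8%. GTTGCC, a core of RFX factor sites, occurred in 15.7%, against 17.2% and 12.5%. All motifs were searched on both strands, and a match is a description only.

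The genes nearest to Hemgn in pattern were found by Pearson correlation of log2(CPM + 10) over 80 bins, made from 10 bins of rising protamine share in each gate and mark; the bins share libraries and gates, so the values only describe likeness. The 10 nearest were Iqcf6, Asns, Cst13, Actrt3, Ccdc159, Fam71b, Tuba8, Gm28269, 4930511M06Rik and Map7, with r from 0.96 to 0.97. Members and both round gates were chosen on Hemgn counts, so the variation of Hemgn over the bins is set in part by the rules. A gene low in the round gates and high in members therefore scores high, and the values are no independent support. Tuba8, an alpha-tubulin, averaged 344 CPM in members, against 20.4 CPM in early round, 11.3 CPM in later round and 162 CPM in elongating spermatids. Asns, asparagine synthetase, averaged 209 CPM, against 14.8, 17.3 and 87.6 CPM. Cst13, a cystatin family member, averaged 551 CPM, against 43.9, 26.9 and 269 CPM. Unlike Csrnp1 or Cd46, these genes were still well expressed in elongating spermatids, and under TMM factors none of the 10 was called over them.

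More acrosome genes were higher than lower in members than in early round and elongating spermatids. Of 40 listed genes, 21 were higher and 7 lower than in early round spermatids (39 measured), 12 higher and 7 lower than in later round spermatids, and 23 higher and none lower than in elongating spermatids. That is 53.8% higher and 17.9% lower, 30% and 17.5%, and 57.5% and 0%. Over all measured genes the shares were 8.9% and 11.7% against early round, 5.65% and 7.47% against later round, and 11.8% and 2.3% against elongating spermatids. These all-gene shares include genes under 50 CPM in both groups, which could not be called, so a list of well expressed genes can exceed them for that reason, and each list below is to be read beside them. Their median log2 ratios were 0.68, 0.05 and 1.40, beside -0.44, -0.32 and 0.78 over all measured genes; medians of the lists that follow are read beside the same 3 values. Under TMM factors 6 were lower than in elongating spermatids and 19 higher. Ccin, calicin of the perinuclear theca, averaged 338 CPM in members, against 29.3, 57.9 and 108 CPM, with its call over elongating spermatids lost under median-of-ratios factors. Prss37, a protease relative needed for sperm migration in mice, averaged 275 CPM, against 15.7, 10.5 and 172 CPM, and it was not called over elongating spermatids. Izumo1, the sperm protein that binds the egg, averaged 209 CPM, against 86.5, 137 and 33.1 CPM, and Spaca6, also needed for fusion, 94.5 CPM, against 32.3, 50.8 and 19.1 CPM.

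Other acrosome genes were lower. Zpbp2, an acrosomal matrix protein, stood at 180 and 190.3 CPM in members, against 544 and 585 CPM in early round, 426 and 476 CPM in later round and 54.1 and 68.8 CPM in elongating spermatids. Dpy19l2, which anchors the acrosome to the nucleus, averaged 39.6 CPM in members, against 139, 112 and 20.01 CPM. Both were lower than in the round gates under all 3 scalings. Acrv1, an acrosomal vesicle protein that helped to define a gate, stood at 524 CPM, against 432, 508 and 73.1 CPM, and Spam1, a hyaluronidase used in the same way, at 44.5 CPM, against 28.2, 236 and 16.5 CPM. Tex29, a testis gene listed as a round spermatid marker, averaged 549 CPM in members, against 68.6, 181 and 77.7 CPM, and peaked there under all 3 scalings.

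Several Garin genes were high beside Fam71b. The 16 listed family members and Golgi partners include Fam71b, itself higher in members than in each of the other gates by totals. Of the 16, 7 were higher and 3 lower than in early round, 7 higher and 2 lower than in later round, and 6 higher and 2 lower than in elongating spermatids. Under TMM factors the last pair was 3 and 4. The higher shares were 43.8, 43.8 and 37.5%. The median log2 ratios were -0.41, 0.33 and 0.96. Fam71a averaged 223 CPM in members, against 15.04, 9.99 and 137 CPM. Fam71e2 averaged 112 CPM, against 31.3, 46.9 and 37.6 CPM, and peaked in members under all 3 scalings. Fam71f1 and Fam71f2 were highest in elongating spermatids, at 343 and 175 CPM in members, against 569 and 445 CPM there.

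Among 25 transcription regulators 5 were higher and 7 lower than in early round, 3 higher and 4 lower than in later round, and 10 higher and 1 lower than in elongating spermatids, with median log2 ratios of -0.60, -0.45 and 0.90. The shares were 21.7% higher and 30.4% lower, 12.5% and 16.7%, and 41.7% and 4.17%, above the all-gene shares in both directions. Fhl5, the coactivator of CREM, averaged 718 CPM in members, against 125, 270 and 382 CPM, and its call over elongating spermatids was lost under both other scalings. Jund, an AP-1 factor, averaged 173 CPM in members, against 25.1 and 30.2 CPM in the round gates and 295 CPM in elongating spermatids. Tbpl1, a relative of the TATA-binding protein needed for spermiogenesis, averaged 259 CPM, against 896, 719 and 114 CPM. Crem, the activator of many postmeiotic genes, averaged 422 CPM in members and 511 and 583 CPM in the round gates, without a call against either.

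Some genes of chromatin condensation lay between their round and elongating levels, and others, such as Cdyl and H3f3b, averaged highest in members. Of 41 listed genes, 11 were higher and 6 lower than in early round (37 measured), 9 higher and 4 lower than in later round (38 measured), and 5 higher and 4 lower than in elongating spermatids (39 measured), with median log2 ratios of -0.40, -0.01 and 0.71. The higher shares were 29.7, 23.7 and 12.8%, and the lower shares 16.2, 10.5 and 10.3%. Against elongating spermatids the higher share was close to the 11.8% of all genes. There, under TMM factors, 4 were higher and 6 lower. Cdyl, a chromodomain protein, averaged 475 CPM in members, against 59.5 and 116 CPM in the round gates and 319 CPM in elongating spermatids, without a call against the last. H1fnt, a linker histone of elongating spermatids, averaged 1102 CPM, against 189, 292 and 1993 CPM. Hmgb4, an HMG-box protein listed among the markers, averaged 2297 CPM, against 461, 808 and 4354 CPM. H3f3b, which encodes the replacement histone H3.3, averaged 2496 CPM, against 1214, 1793 and 290 CPM.

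The manchette and tail lists split by gene. Of 35 manchette and nuclear shaping genes, 11 were higher and 13 lower than in early round spermatids (33 measured). Against later round spermatids 8 were higher and 9 lower (34 measured), and against elongating spermatids 11 were higher and 5 lower. Under TMM factors the last pair was 6 and 9. The median log2 ratios were -0.17, -0.49 and 0.83. Spem1, needed to clear cytoplasm from the sperm head, averaged 245 CPM in members, against 65.9, 40.9 and 557 CPM. Ift172, a subunit of intraflagellar transport, averaged 457 CPM, against 148, 111 and 938 CPM. Of 26 fibrous sheath and outer dense fibre genes, 6 were higher and 3 lower than in later round and 9 higher and 5 lower than in elongating spermatids, with 7 higher and 13 lower there under TMM factors. The median log2 ratios were 0.15 and 0.04. Odf3, an outer dense fibre gene, peaked at 569 CPM in members, against 173, 363 and 165 CPM.

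Axonemal dynein and cilia genes, the longest list, had the most genes lower than in round spermatids. Of 60 measured, 3 were higher and 26 lower than in early round, 2 higher and 18 lower than in later round, and 22 higher and none lower than in elongating spermatids. The median log2 ratios were -1.01, -0.70 and 1.18. The lower shares were 43.3% against early round and 30% against later round, beside 11.7% and 7.47% of all genes. The shorter manchette list was close, with 39.4% and 26.5% lower. Under TMM factors 13 were lower than in early round and 11 lower than in later round, beside 5 of 33 and 7 of 34 manchette genes. Cfap52, a microtubule inner protein, averaged 34.3 CPM in members, against 200.5, 162 and 22.3 CPM. Tekt2, a tektin, was not called against the round gates, at 666 CPM in members, 681 CPM in early round and 861 CPM in later round spermatids. The exceptions were Tekt5, at 237 CPM in members against 28.4, 31.5 and 94.9 CPM, and Cfap97d1, at 623 CPM against 79.7, 137 and 313 CPM, both called over elongating spermatids by totals but under neither other scaling.

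**Figure D4:**
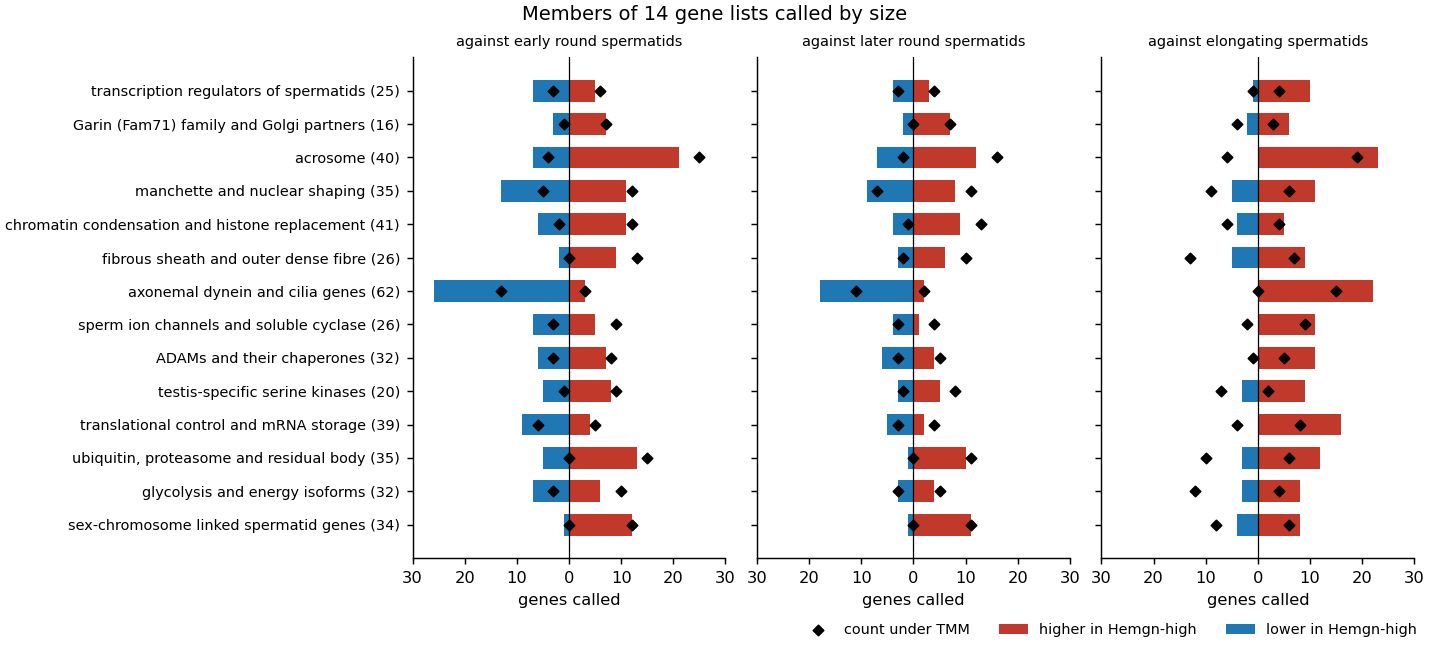
Genes of 14 lists called higher (red, to the right) or lower (blue, to the left) in Hemgn-high spermatids than in each of the other gates; the number of genes used stands in parentheses and black diamonds give the counts under TMM factors. Acrosome genes have 21 higher and 7 lower against early round spermatids, and axonemal dynein and cilia genes 3 higher and 26 lower.

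Sperm ion channel genes were lower in members than in early round spermatids for 7 of 25 measured and higher for 5, and lower than in later round for 4 and higher for 1. The shares were 20% higher and 28% lower against early round, and 4% and 16% against later round, where 5.65% of all genes were higher. Against elongating spermatids 11 were higher and none lower, and the median log2 ratios were -0.75, -0.51 and 1.12. Catsper2, a pore subunit of the sperm calcium channel, averaged 100.1 CPM in members, against 261, 213 and 31.1 CPM. Of 32 ADAM genes and chaperones, 4 were higher and 6 lower than in later round, and 11 higher and none lower than in elongating spermatids, with median log2 ratios of -0.36 and 1.36. Adam6a, a sperm surface protein gene, peaked in members at 91.1 CPM, against 11.7, 23.4 and 22.0 CPM. Of 20 testis-specific serine kinase genes and their partners, 5 were higher and 3 lower than in later round, and 9 higher and 3 lower than in elongating spermatids, which became 2 and 7 under TMM factors. The median log2 ratios were 0.13 and 0.65. Tssk6, a kinase needed for chromatin packing in sperm, averaged 519 CPM in members, against 189, 101 and 1534 CPM.

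Of the translational control genes 2 were higher (5.26%) and 5 lower (13.2%) than in later round spermatids, of 38 measured, beside 5.65% and 7.47% of all genes, and 16 of 39 were higher and none lower than in elongating spermatids, at median log2 ratios of -0.39 and 1.02. Under TMM factors 8 were higher and 4 lower than in elongating spermatids. Paip2b, an inhibitor of poly(A)-binding protein, peaked at 115 CPM in members, against 26.6, 36.2 and 22.3 CPM. Samd4, a repressor of translation, averaged 808 CPM, against 211, 420 and 474 CPM, and its call over elongating spermatids was lost under both other scalings. Ddx4, the germ cell helicase, averaged 191 CPM, against 468, 410 and 66.0 CPM. Pabpc2, a testis poly(A)-binding protein, averaged 445 CPM, against 1009.9, 937 and 172 CPM.

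Of 35 ubiquitin and residual body genes 13 were higher (37.1%) and 5 lower (14.3%) than in early round, and 10 higher (28.6%) and 1 lower (2.86%) than in later round spermatids. Against elongating spermatids 12 were higher and 3 lower, which became 6 and 10 under TMM factors. The median log2 ratios were 0.36, 0.11 and 0.96. Rnf151, a ring finger protein of the acrosome, averaged 2069 CPM in members, against 691, 1125 and 726 CPM, with the last call lost under both other scalings. Ube2dnl1, an X-linked ubiquitin-conjugating enzyme relative, averaged 102 CPM, against 22.2, 42.1 and 16.2 CPM, and peaked in members under all 3 scalings. Of the sex-chromosome linked list 11 genes were higher and 1 lower than in later round, of 34, and 8 higher and 4 lower than in elongating spermatids, of 33, with median log2 ratios of 0.52 and 0.98. The last pair became 6 and 8 under TMM factors. Uba1, the X-linked ubiquitin-activating enzyme, averaged 52.6 CPM in members, against 13.6, 22.5 and 17.7 CPM, and Cypt15, a cysteine-rich perinuclear theca gene, 79.7 CPM, against 7.005, 9.59 and 57.8 CPM. Of the glycolysis and energy list 4 genes were higher and 3 lower than in later round, of 30, with a median log2 ratio of -0.22. Against elongating spermatids 8 of 32 were higher and 3 lower, which became 4 and 12 under TMM factors. Pkm, pyruvate kinase, averaged 130.4 CPM in members, against 24.5 and 28.7 CPM in the round gates and 187 CPM in elongating spermatids.

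The genes that were lowest in members relative to later round spermatids included Smco4, at 25.9 and 21.9 CPM in members, against 235 and 254 CPM in later round spermatids, a ratio of 0.0989 (interval 0.0859 to 0.113). Prss46, a serine protease of the testis, averaged 49.3 CPM in members, against 341 CPM. At the other end, Car2, carbonic anhydrase, stood at 95.8 and 117 CPM in members, against 615 and 708 CPM in elongating spermatids, a ratio of 0.159 (interval 0.149 to 0.170). Apoe was lowest relative to elongating spermatids, at 8.75 CPM against 110 CPM; Apoe is also a macrophage marker, and the macrophage list summed to 22.0 CPM in members and 145 CPM in elongating spermatids, whose part in that ratio was not tested.

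Within the members, the protamine share varied between cells and several genes varied with it. The members were split at 1, 3 and 6% of UMIs, the last limit set after the data were seen, into bands of 10, 48, 63 and 85 barcodes, with the 246 Hemgn-high barcodes at 10% or more as a last step outside the rule. Hemgn averaged 128.2, 241, 336 and 519 CPM along the bands, and 696 CPM beyond the limit. Fam71b averaged 91.9, 195, 286 and 483 CPM, and 661 CPM beyond it. The last step, like each band, holds only barcodes with at least 8 Hemgn UMIs, at a median of 30647.5 UMIs. Its Hemgn level, and the levels of genes near Hemgn in pattern, therefore follow the selection. The elongating gate, which used no Hemgn limit, had 148 CPM of Hemgn and 147 CPM of Fam71b, below the members. The band under 1% was the deepest, with a median of 82965.5 UMIs and a mitochondrial share of 0.378%. The band at 6 to 10% had a median of 33881 UMIs. A fixed limit of 8 Hemgn UMIs admits lower Hemgn CPM at greater depth. The Hemgn values along the bands, and those of Fam71b near it in pattern, thus also depend on depth and selection.

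Values along the bands differed among the genes that peaked in members, of which 4 are given. Csrnp1 stood at 144, 171, 162 and 166 CPM along the bands, and at 49.8 CPM beyond the limit. Tex29 stood at 517, 562, 509 and 580.5 CPM, and at 233 CPM beyond it. Cd46 stood at 18.2, 26.0, 63.5 and 107 CPM along the bands, and at 44.4 CPM beyond the limit. Cd55 stood at 26.1, 51.5, 107 and 172 CPM, and at 139 CPM beyond it. Csrnp1 and Tex29 were thus level among members, whereas Cd46 and Cd55 were concentrated in the bands richest in protamine RNA.

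Spam1, Ddx4 and H3f3b were lower in the bands with more protamine RNA. Spam1 stood at 124, 76.6, 16.5 and 21.7 CPM, and at 13.3 CPM beyond the limit. Ddx4 stood at 290.5, 262, 219 and 87.6 CPM. H3f3b stood at 2915, 3043, 2715 and 1806 CPM, and at 290 CPM beyond the limit. Acrv1 stood at 546, 597, 504 and 482 CPM. Genes of elongating spermatids were higher in the bands with more protamine RNA. H1fnt stood at 833, 1034, 1077 and 1247 CPM, and at 1686 CPM beyond the limit. Tssk6 stood at 271, 404, 470.3 and 711 CPM, and at 1075 CPM beyond it.

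**Figure D5:**
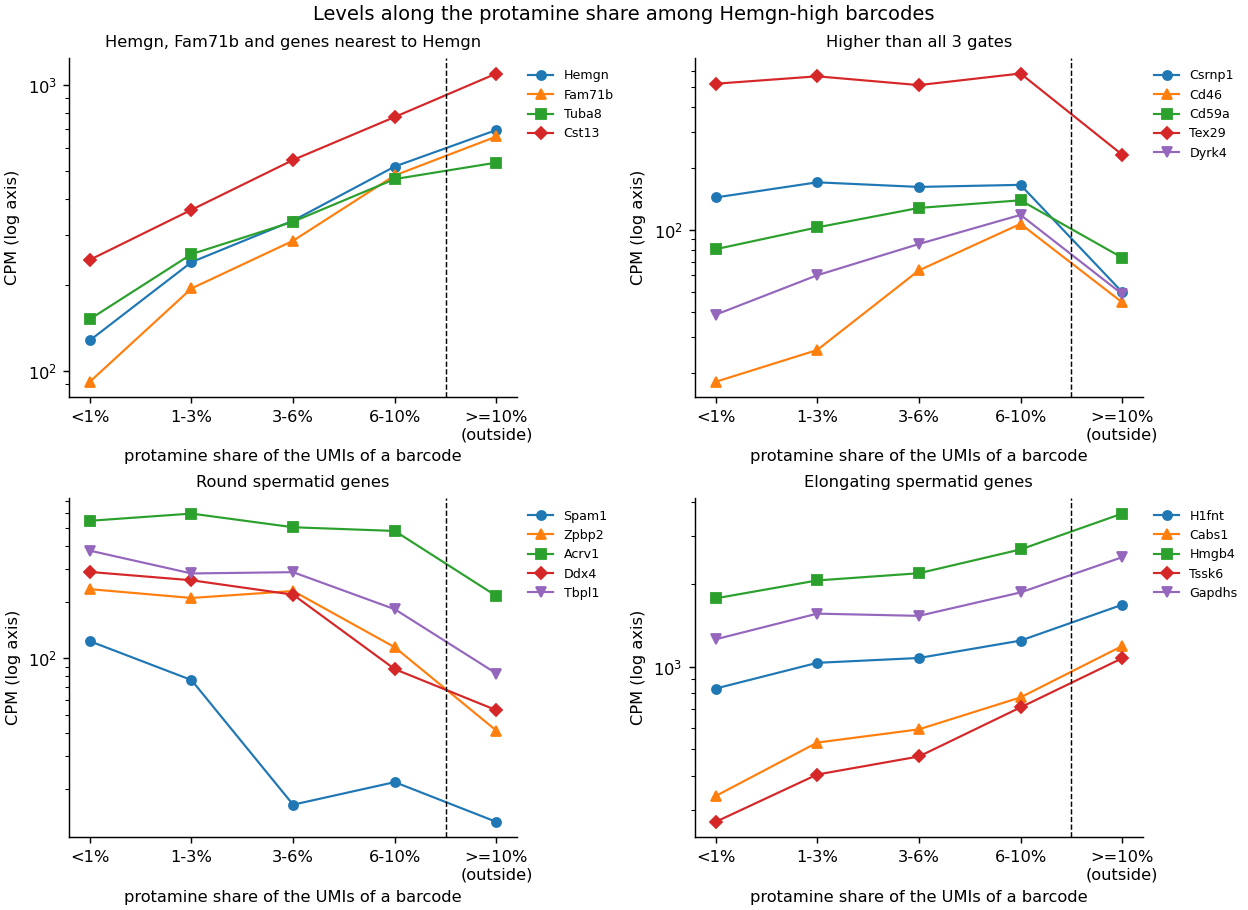
CPM (log axis) of the summed UMIs in Hemgn-high barcodes by protamine share, with the dashed line at the 10% limit of the rule and the barcodes beyond it as the last point. Every point holds only barcodes chosen for at least 8 Hemgn UMIs. Hemgn, Fam71b, Tuba8 and Cst13 are highest at the last point, although in the elongating gate, not chosen on Hemgn, all 4 lie below the members. Csrnp1, Cd46, Cd59a, Tex29 and Dyrk4 are highest among members, and Spam1 has 124 CPM in the first band against 13.3 CPM beyond the limit.

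Between the 85 members at 6 to 10% and the 58 members under 3%, 344 of 10147 measured genes were higher (3.39%) and 509 lower (5.02%) at 6 to 10% by the same size rule. Since the protamine share is part of the rule, these values only describe the spread of the members. Without the 8 barcodes rich in spermatocyte RNA, 4 of which lay under 3%, 319 were higher and 427 lower. Klc3, a kinesin light chain of the sperm tail, was 17.0-fold higher at 6 to 10%, at 63.97 CPM against 3.76 CPM. Plin2, a lipid droplet protein, was lower, at 19.9 CPM at 6 to 10% against 127 CPM under 3%. Of the 317 genes that peaked in members, 64 were higher and 10 lower at 6 to 10% than under 3%. These genes had to reach 50 CPM in the same members, which was not asked of the 10147 measured genes. Their counts therefore cannot be set beside the 3.39% and 5.02% of all genes.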

How the data were processed

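The authors deposited 1 table of UMI counts of 20476 genes by 28245 barcodes from 10x Chromium 3′ libraries, per the labels' protocols. Cell Ranger 1.3.1, the GRCm38 build and Seurat 3.2.2 are listed in the submitters' processing notes. Totals of member barcodes ran from 4754 to 157053 UMIs. No doublet caller was run and no barcode was removed. UMIs were summed per gate and mark in Python 3.11.15 and scaled to CPM. Intervals are exact Poisson or Clopper-Pearson at 95%, ratios use exact conditional binomial intervals, and a sum of 0 was set to 3 UMIs in ratios. Genes with at least 20 UMIs over both groups counted as measured. TMM factors came from edgeR 4.0.16 and median-of-ratios factors from DESeq2 1.42.0, on the summed counts. With 1 library per genotype and no map from mark to genotype, nothing was tested. The calling steps were tested on simulated data. Members and lists were chosen with earlier results of these data known. Genes were named by a rule: both marker genes, the listed spermatid markers, the members of each list with the largest ratios, the 10 highest and 10 lowest genes per comparison and the 10 nearest to Hemgn. Those given in the text are a selection from these, made after their values were seen, and Csrnp1, Cd55, Cd59a, Parn, Rad21, Banf2 and a few list members outside the rule were added in the same way.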

Additional observations from a re-analysis of the deposited data

How the results depend on the processing

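No paired analysis was possible because the columns carry no replicate numbers and no map to the samples. The number and share of Hemgn-high barcodes moved with the limits. They were 329 (1.16%) at 5 Hemgn UMIs, 129 (0.457%) at 12 and 53 (0.188%) at 20, and 105 (0.372%) at a protamine limit of 5%. The share was 1.06% at a limit of 15%, 0.943% under mark 1 alone and 0.549% under mark 2 alone. After thinning to 3500 UMIs, at least 1, 2 or 3 Hemgn UMIs took 5618 barcodes (19.9%), 1337 (4.73%) and a share of 1.05%, the last with 21.8% of the members. Under TMM factors 590 genes were lower than in early round, 510 lower than in later round, and 948 higher and 1136 lower than in elongating spermatids; under median-of-ratios factors these were 604, 470, 823 and 1291. Without a floor on CPM and UMIs, 2993 genes were higher and 4471 lower than in early round, 2828 and 3735 than in later round, 7447 and 962 than in elongating spermatids, and 1100 higher than in all 3. At a fold of 2, 842 were lower than in early round, 559 higher and 439 lower than in later round, 188 lower than in elongating spermatids and 158 higher than in all 3. With protamines left out of the totals, 1551 were higher and 557 lower than in elongating spermatids. The log2 ratio over elongating spermatids fell below 0 for 132 of the 1824 genes called higher by totals under TMM factors and for 248 under median-of-ratios factors, which shift all genes by -0.80 and -0.91. Among the genes followed one by one these were Trim36 (-0.0045 and -0.12), Samd4 (-0.027 and -0.15) and Cox8c (-0.059 under median-of-ratios factors). The shift itself accounts for such changes of sign, and the cause of the other differences was not tested.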

Other observations

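The barcodes taken by 1 of the markers differed in the other. The 50 barcodes taken by the Hemgn rule and not by the Fam71b gate had 142 CPM of Fam71b, and the 30 taken by the Fam71b gate and not by the Hemgn rule had 197 CPM of Hemgn. Barcodes taken by both had 352 CPM of Fam71b and 368 CPM of Hemgn. Klf5, a zinc finger factor, was among the genes with the largest ratio over elongating spermatids, at 93.4 CPM in Hemgn-high spermatids, against 14.6 CPM in early round, 36.4 CPM in later round and 7.46 CPM in elongating spermatids.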
